A study of Caenorhabditis elegans with 4 samples.

Results

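The genes described here are 8 *C. elegans* genes that act on histones between synthesis and deposition or, for *cdl-1*, on histone mRNA. They are the ASF1 homologs *unc-85* and *asfl-1*, the CAF-1 subunit gene *chaf-1*, *hira-1* and *nap-1*. The others are the RbAp46/48 homologs *rba-1* and *lin-53* and the stem-loop binding protein gene *cdl-1*. All 8 were chosen by function, with earlier results of these data known. Their symbols were matched to the gene identifiers of the count files, and they make up 8 of 46934 gene identifiers. The study asked how the AT-hook protein ATTF-6 affects transcription of clustered gene families, and mRNA was sequenced from whole adults after germline depletion of ATTF-6 and from control adults, with 2 libraries in each group. ATTF-6 depletion animals carried a GFP, TEV and auxin-inducible degron tag at the endogenous *attf-6* locus on chromosome I together with the transgene wrdSi51 on chromosome II, in which the *mex-5* promoter drives the ubiquitin ligase adaptor TIR1. Control animals carried wrdSi51 alone. Both groups grew at 20 °C, were moved to 4 mM auxin at the L4 larval stage and were harvested as adults. Because *mex-5* drives TIR1 in the germ line, ATTF-6 in somatic cells was not targeted, and because no tagged animals without auxin were sequenced, an effect of the tag and an effect of depletion cannot be told apart. The libraries are whole animals, so fewer germ cells and less RNA per germ cell cannot be told apart either, and the study describes atrophied germ lines after depletion. The study's methods call replicates of this experiment biological, while its figure legends call them sequencing replicates. Neither the study nor the labels say whether the 2 libraries of a group came from separate cultures, so the p-values measure only the spread between these libraries.

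New nucleosomes need histones that are kept soluble and handed to DNA by chaperones. ASF1 passes dimers of H3 and H4 to CAF-1, which loads them behind the replication fork, or to HIRA, which deposits the variant H3.3 outside replication, while NAP1 carries H2A and H2B. The WD40 proteins of the RbAp46/48 family bind histone H4 inside CAF-1 and inside several chromatin-modifying complexes. The mRNAs of replication-dependent histones usually end in a stem-loop in place of a poly(A) tail, and the stem-loop binding protein, CDL-1 in *C. elegans*, binds it. In adult worms somatic cells no longer divide, and most DNA replication takes place in the germ line and in the embryos held in the uterus.

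The libraries held 23923423 and 27269737 gene counts in ATTF-6 depletion and 32096525 and 29753993 in controls. Their make-up moved with the group: protein-coding genes took 84.7% and 87.7% of the counts in ATTF-6 depletion against 92.6% in each control, and genes with fractional counts took 29.4% and 29.98% in ATTF-6 depletion against 22.1% and 21.5% in controls. The part of this shift in the decreases below was not tested. The *attf-6* mRNA, whose protein is the target of the degron, had 2290 and 3504 counts in ATTF-6 depletion against 5310 and 5233 in controls (log2 fold change -0.57, SE 0.13, adjusted p = 0.0042). The 2 depletion libraries were less alike than the controls: the chi-square of a replicate pair, per gene, was 48.7 for depletion and 3.73 for controls. By the quasi-likelihood test of edgeR, adjusted by Benjamini-Hochberg for the 16591 genes tested, 5332 genes were lower in ATTF-6 depletion (32.1% of those tested) and 5120 higher (30.9%) at an adjusted p under 0.05.

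All 8 genes were lower in ATTF-6 depletion, against the 32.1% of tested genes that were. Their decreases ran from 1.85-fold for *nap-1* to 4.88-fold for *rba-1*, with a median log2 fold change of -1.73, against 0.16 over all genes tested. In all 8, both depletion libraries lay below both control libraries, as they did for 38.1% of all genes tested. Every member passed the filter on low counts, and each had only whole counts in the 4 libraries. Whole counts give no sign of reads shared out between several sites, although divided reads can add up to a whole number. Values below are CPM, counts scaled to the library's total with edgeR's TMM normalization, given as mean ± SD over n = 2 libraries where averaged.

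**Figure D1:**
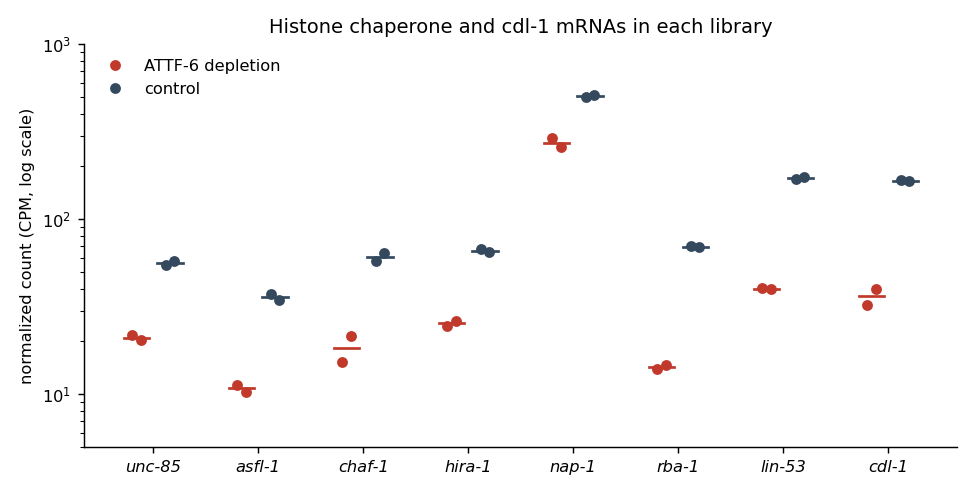
Normalized counts (CPM, log axis) of the 8 genes in each library, with ATTF-6 depletion in red and controls in dark blue. Each dot is 1 library and each bar the mean of a group of 2, and for every gene both red dots lie below both blue dots, with the smallest gap for *nap-1*.

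The ASF1 homologs both fell. UNC-85 is the ASF1 protein first known from its requirement in dividing neuroblasts, and ASFL-1 is its close paralog. The *unc-85* mRNA stood at 21.7 and 20.5 CPM in ATTF-6 depletion, against 54.4 and 57.7 CPM in controls. The replicates of each group lay close together and the groups were well apart (21.1 ± 0.863 against 56.0 ± 2.33 CPM, log2 fold change -1.41, SE 0.11, adjusted p = 1.1e-05). The *asfl-1* mRNA stood at 11.2 and 10.3 CPM in ATTF-6 depletion, against 37.2 and 34.4 CPM in controls. It was the least counted of the 8 in depleted animals, with 255 and 288 counts, and fell 3.32-fold (log2 fold change -1.73, SE 0.13, adjusted p = 9.6e-06). Since related sequences can trade reads, the counts of both paralogs were also added and tested as 1 gene. The sum was 32.9 and 30.8 CPM in ATTF-6 depletion against 91.5 and 92.1 CPM in controls (log2 fold change -1.53, SE 0.10, adjusted p = 6.1e-06).

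The balance of the 2 ASF1 mRNAs was compared within libraries, where library size cancels. Per kb of exon, *unc-85* was 1.94 and 1.99 times as abundant as *asfl-1* in ATTF-6 depletion, against 1.47 and 1.68 times in controls. Both depletion ratios were above both control ratios, by 0.32 on the log2 scale. With 2 libraries against 2, a two-sided exact permutation test cannot give a p below 0.333, and it gave that value, so a shift in the balance was not resolved.

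*chaf-1* encodes the large subunit of CAF-1, the chaperone that works at the replication fork. It had 15.2 and 21.5 CPM in ATTF-6 depletion, against 57.3 and 64.1 CPM in controls. The depletion libraries were far apart for this gene, with replicate 1 the lower, yet both stayed well under the controls (18.4 ± 4.42 against 60.7 ± 4.77 CPM, log2 fold change -1.72, SE 0.16, adjusted p = 2.9e-05). Leaving out each library in turn gave log2 fold changes between -2.04 and -1.505, the widest range among the 8. The adjacent gene on the same strand, *rsbp-1*, 239 bases away, had 20.2 and 22.5 CPM in ATTF-6 depletion and 18.96 and 16.9 CPM in controls, and did not pass the test (adjusted p = 0.14).

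*hira-1* encodes the HIRA chaperone, which in *C. elegans* as in other animals works with the variant H3.3. It had 24.5 and 26.3 CPM in ATTF-6 depletion, against 67.3 and 64.5 CPM in controls. Replicates were close in both groups and the groups were well apart (25.4 ± 1.28 against 65.9 ± 2.00 CPM, log2 fold change -1.37, SE 0.11, adjusted p = 1.1e-05). Its annotation shares 99 of 3393 exon bases with *moc-6* on the same strand, and reads inside that stretch would be assigned to neither gene under the counting settings the study states. Per kb of exon, *chaf-1* was 1.19 and 1.56 times as abundant as *hira-1* in ATTF-6 depletion, against 1.63 and 1.90 times in controls. The ratios did not overlap, but the difference of -0.37 on the log2 scale again could not be tested below an exact permutation p of 0.333.

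**Figure D2:**
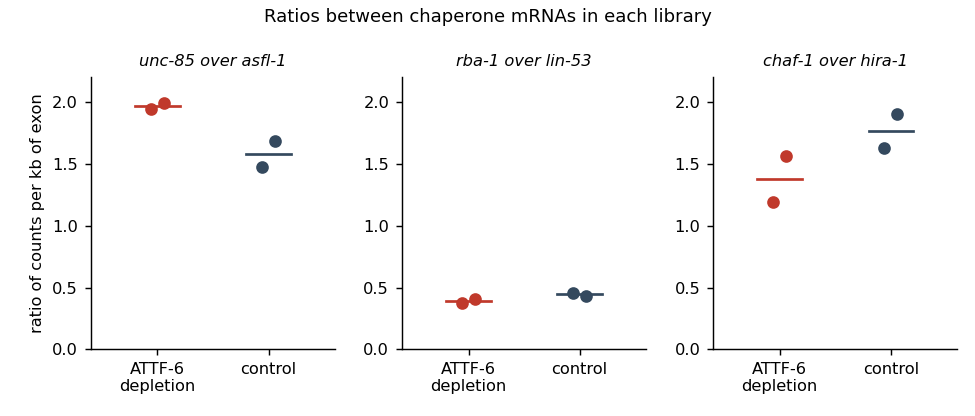
Ratio of counts per kb of exon between pairs of chaperone mRNAs in each library (linear axes starting at 0), with ATTF-6 depletion left of controls. Dots are libraries and bars means of 2. The groups do not overlap in any of the 3 pairs, but the share of all gene pairs without overlap was not counted. Each difference is small beside the decreases of the genes themselves, and with 2 libraries against 2 none was resolved.

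With TMM normalization *his-72* and *his-71*, genes for H3.3, the cargo of HIRA, moved in opposite directions. *his-72* had 69.1 and 83.6 CPM in ATTF-6 depletion against 157.1 and 155.4 CPM in controls (log2 fold change -1.03, SE 0.12, adjusted p = 9.9e-05). *his-71* had 35.8 and 27.5 CPM in ATTF-6 depletion against 17.9 and 16.8 CPM in controls (log2 fold change 0.86, SE 0.15, adjusted p = 0.0010). The H3.3-like gene *his-70* was also higher, at 5.82 and 5.60 CPM in ATTF-6 depletion against 2.88 and 2.65 CPM in controls. *his-74*, also H3.3-like, was lower (log2 fold change -1.78, SE 0.11, adjusted p = 4.3e-06). It had 30.5 and 27.2 CPM in ATTF-6 depletion against 97.5 and 100.3 CPM in controls. *his-69* had too few counts to test. With libraries scaled to the germ cell list described below, *his-72* was called higher (log2 fold change 0.49, adjusted p = 0.0095), as was *his-71* (2.42, adjusted p = 2.8e-04). In that scaling *his-74* did not pass (-0.24, adjusted p = 0.25). Of all genes tested 76.8% were called higher there, and the median of all genes was at 1.69, above *his-72*.

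*nap-1* encodes the NAP1 homolog, a carrier of H2A and H2B. It had 288.6 and 258.4 CPM in ATTF-6 depletion, against 496.5 and 513.9 CPM in controls. It was the most abundant of the 8 in every library and the one that fell least, retaining 54.1% of its control level (log2 fold change -0.89, SE 0.12, adjusted p = 2.0e-04). That decrease was close to the lower quartile of all protein-coding genes tested, at -0.85. The neighbouring gene *D2096.7*, 74 bases away on the same strand, had 8.50 and 8.87 CPM in ATTF-6 depletion against 23.7 and 24.4 CPM in controls, a decrease of 1.47 on the log2 scale (log2 fold change -1.47, adjusted p = 3.3e-05).

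The RbAp46/48 homologs had the steepest decreases among the chaperones of this set. RBA-1 is the small subunit of worm CAF-1, and LIN-53 belongs to the DREAM complex, to histone deacetylase complexes and to the machinery that loads the centromeric H3. The *rba-1* mRNA had 13.9 and 14.6 CPM in ATTF-6 depletion, against 70.4 and 68.9 CPM in controls (14.2 ± 0.515 against 69.6 ± 1.06 CPM). It kept 20.5% of its control level, the smallest share of the 8 (log2 fold change -2.29, SE 0.11, adjusted p = 2.1e-06). The *lin-53* mRNA had 40.6 and 39.6 CPM in ATTF-6 depletion, against 170.0 and 174.2 CPM in controls. Its depletion replicates were relatively the most alike of the set, and it kept 23.3% of its control level (log2 fold change -2.10, SE 0.10, adjusted p = 2.4e-06). Their genes lie 88 bases apart on the same strand, at chrI:9616516-9618107 for *rba-1* and chrI:9618196-9619760 for *lin-53* (WBcel235). The gene on the far side of *rba-1*, *K07A1.10*, 182 bases away on that strand, was lower by less, at 19.5 and 14.97 CPM in ATTF-6 depletion against 27.7 and 31.3 CPM in controls (log2 fold change -0.78, adjusted p = 0.0021).

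Added together, *rba-1* and *lin-53* had 54.5 and 54.2 CPM in ATTF-6 depletion against 240.4 and 243.0 CPM in controls (log2 fold change -2.15, SE 0.11, adjusted p = 2.5e-06). Per kb of exon, *rba-1* stood at 0.375 and 0.404 of *lin-53* in ATTF-6 depletion, against 0.454 and 0.434 in controls. The depletion ratios lay just under the control ratios, and the difference of -0.19 on the log2 scale reached only the smallest p of the exact permutation test, 0.333.

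*cdl-1* encodes the stem-loop binding protein, the only member that acts on histone mRNA and not on histone protein. It had 32.5 and 39.8 CPM in ATTF-6 depletion, against 166.3 and 164.3 CPM in controls. The depletion libraries differed from each other and the controls hardly did (36.2 ± 5.18 against 165.3 ± 1.37 CPM), and the gene fell 4.56-fold (log2 fold change -2.19, SE 0.13, adjusted p = 3.3e-06). The next gene on the strand, *tag-209*, 39 bases downstream, went the other way, with 11.2 and 9.51 CPM in ATTF-6 depletion against 6.56 and 6.09 CPM in controls (log2 fold change 0.71, adjusted p = 0.0083). Of the 69 histone genes tested under *his* symbols, 54 were lower and 5 higher in ATTF-6 depletion (median log2 fold change -2.21). Many of these genes are near-identical copies whose multi-mapping reads were divided between them, so single copies are uncertain, and the annotation used here does not name the histone class.

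Ordered by abundance per kb of exon, *nap-1* led in both groups, at 204.3 ± 15.98 CPM per kb in ATTF-6 depletion and 377.3 ± 9.20 in controls, followed by *lin-53* at 27.4 ± 0.483 in ATTF-6 depletion and 117.5 ± 2.02 in controls. In controls the order went on with *cdl-1* (103.3), *unc-85* (56.9), *rba-1* (52.2), *asfl-1* (36.1), *chaf-1* (34.2) and *hira-1* (19.4 CPM per kb), and only the ranges of *asfl-1* and *chaf-1* overlapped. In ATTF-6 depletion *cdl-1* (22.6) and *unc-85* (21.4 CPM per kb) overlapped, as did *asfl-1* (10.9), *rba-1* (10.7) and *chaf-1* (10.4) with their neighbours in the order, and *hira-1* was again last at 7.49 CPM per kb. Thus *cdl-1* overlapped with *unc-85*, and *rba-1* with *asfl-1* and *chaf-1*, in ATTF-6 depletion, whereas in controls they were above these genes. In controls all 8 were above the median of protein-coding genes tested, 7.18 CPM per kb.

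The members were then set beside the other genes of their pathways. The 12 other chaperones and deposition factors were all lower in ATTF-6 depletion, with a median log2 fold change of -1.41. Among them the largest decreases were those of *nasp-2*, a NASP-type H3-H4 chaperone (102.5 and 112.4 CPM in ATTF-6 depletion against 547.0 and 535.5 CPM in controls, log2 fold change -2.33), *spr-2*, of the SET and NAP family (-1.65), and *hmg-4*, an SSRP1 subunit of the FACT complex (-1.63). All 13 tested genes of histone mRNA 3′ ends and the CSR-1 pathway were lower as well, with a median of -1.13, led by *fipp-1* (-1.54) and *cpsf-4* (-1.44) of the cleavage and polyadenylation machinery and by the small-RNA helicase gene *drh-3* (-1.34). The fold change of *cdl-1* was below that of each of the 13, a difference that was not tested. The 19 partners of LIN-53 and RBA-1 in the DREAM, deacetylase, Polycomb and remodelling complexes were all lower, with a median of -1.37, and the largest decreases were in *dpl-1* (-2.60), *lin-54* (-1.86) and *efl-1* (-1.79), the DP, DNA-binding and E2F parts of the DREAM module. These lists were chosen with results of these data known, and each is to be read against the 32.1% of all genes that were lower.

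**Figure D3:**
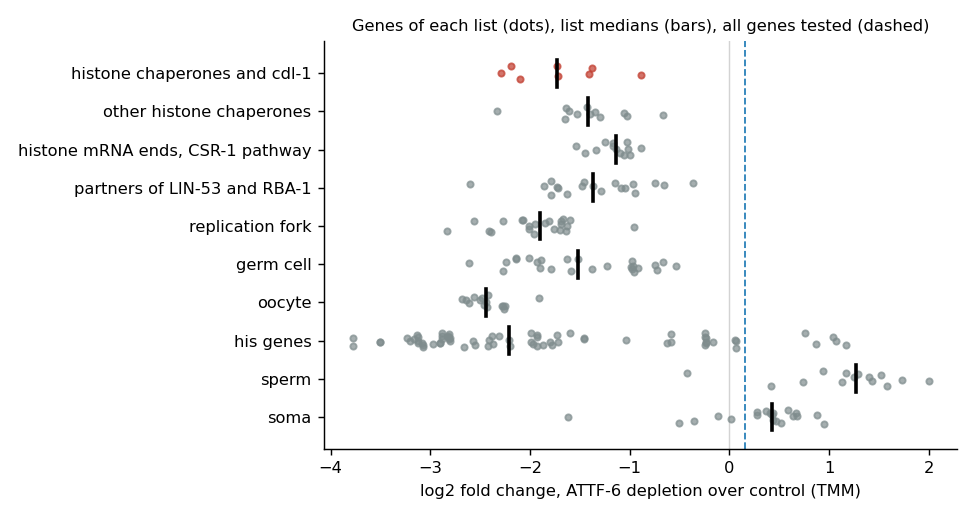
Log2 fold change, ATTF-6 depletion over control with TMM normalization, of every tested gene in each list (dots), with the list median as a black bar. The 8 members (red) lie between -2.29 and -0.89, within the span of the germ cell list, while most sperm and soma genes lie right of the dashed line at 0.16, the median of all genes tested.

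Markers of the tissues in these animals moved too, and their part in the decreases above was not tested. All 25 germ cell genes were lower in ATTF-6 depletion (median log2 fold change -1.52). Their summed level was 1499 to 1840 CPM in ATTF-6 depletion and 4766 to 4811 CPM in controls. For a published set of germline transcripts, with its own normalization, the study reported only a modest fall of the median. The 25 genes may therefore not stand for germline RNA as a whole. All 15 oocyte genes were lower (median -2.44, summed level 1738 to 2133 CPM in ATTF-6 depletion and 10618 to 10646 CPM in controls). The 3 early embryo genes of 8 that had enough counts to test were lower, and the summed level of the 8 was 0.395 to 0.705 CPM in ATTF-6 depletion and 6.81 to 7.44 CPM in controls. Of 14 sperm genes 13 were higher and 1 lower (summed level 309.1 to 356.2 CPM in ATTF-6 depletion and 161.4 to 163.2 CPM in controls), and of 20 somatic genes 11 were higher and 1 lower (19441 to 22425 CPM in ATTF-6 depletion and 13978 to 14062 CPM in controls). The 22 replication fork genes were all lower, with a median of -1.90. Their summed level was 948.0 to 1017 CPM in ATTF-6 depletion and 4019 to 4032 CPM in controls. Of these 22, 4 had a larger decrease than *rba-1*, 5 a larger one than *lin-53* and *cdl-1*, 14 a larger one than *asfl-1* and *chaf-1*, 21 a larger one than *unc-85* and *hira-1*, and all 22 a larger one than *nap-1*.

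Because the 25 genes of the germ cell list were lower, by log2 fold changes of -2.61 to -0.54, the members were also expressed per 1000 counts of the germ cell list in the same library. *cdl-1* had 21.7 counts per 1000 germ cell counts in each depletion library, against 34.9 and 34.2 in controls. *rba-1* had 9.26 and 7.94 per 1000 in ATTF-6 depletion against 14.8 and 14.3 in controls, and *lin-53* had 27.1 and 21.5 in ATTF-6 depletion against 35.7 and 36.2 in controls. Per summed count of the list, these 3 genes, and also *chaf-1* below, were lower in both depletion libraries than in either control. *nap-1* had 192.6 and 140.4 per 1000 in ATTF-6 depletion against 104.2 and 106.8 in controls, the opposite order. *unc-85* had 14.5 and 11.1 per 1000 in ATTF-6 depletion against 11.4 and 11.99 in controls, and *hira-1* had 16.3 and 14.3 in ATTF-6 depletion against 14.1 and 13.4 in controls, so that of this pair only *unc-85* overlapped between groups. *asfl-1* had 7.498 and 5.62 per 1000 in ATTF-6 depletion against 7.80 and 7.16 in controls and also overlapped, whereas *chaf-1*, at 10.2 and 11.7 in ATTF-6 depletion against 12.03 and 13.3 in controls, did not. The share of all genes without overlap on this measure was not counted, so these orders only describe the values.

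With libraries scaled to the germ cell list, 4.66% of all genes tested were lower in ATTF-6 depletion and 76.8% were higher, and the median of all genes was at 1.69. In that scaling 3 of the 8 members were lower, *rba-1* (log2 fold change -0.76, SE 0.15, adjusted p = 0.0033), *cdl-1* (-0.67, SE 0.12, adjusted p = 0.0024) and *lin-53* (-0.56, SE 0.15, adjusted p = 0.013). 1 was higher, *nap-1* (0.66, SE 0.19, adjusted p = 0.017), and *unc-85* (0.13), *hira-1* (0.15), *asfl-1* (-0.19) and *chaf-1* (-0.21) did not pass. The direction of the first 4 was the same with each library left out, but their calls were not: without control replicate 1 adjusted p was 0.062 for *rba-1*, 0.080 for *cdl-1*, 0.13 for *lin-53* and 0.19 for *nap-1*, and without control replicate 2 it was 0.067 for *cdl-1*, 0.15 for *lin-53* and 0.17 for *nap-1*. In the same scaling 8 of the 25 genes of the germ cell list itself were lower and 10 higher, so the share of members called lower was close to that of the list used as the scale. Of the 69 histone genes 36 were lower and 19 higher, and of the 13 genes of histone mRNA 3′ ends and the CSR-1 pathway 8 were higher and the other 5 did not pass. In this scaling 1 of the 12 other chaperones (*nasp-2*, -0.80) and 1 of the 19 partner genes (*dpl-1*, -1.08) were lower, and 3 and 7 were higher. Of the 22 replication fork genes 11 were lower and 1 higher, and of the 15 oocyte genes all 15 were lower.

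With libraries scaled to the somatic list, all 8 members were lower, by log2 fold changes of -1.45 for *nap-1* to -2.86 for *rba-1*, against 40.8% of all genes lower and 8.18% higher and a median of all genes at -0.41. With libraries scaled to the replication fork list, a setting added after the other values had been seen, 2.80% of all genes were lower and 89.4% higher, and the median of all genes was at 2.19. Then no member was called lower by edgeR at an adjusted p under 0.05 and 1 was at an unadjusted p under 0.05 (*rba-1*, log2 fold change -0.25, adjusted p = 0.050). *cdl-1* (-0.16, SE 0.10) and *lin-53* (-0.06, SE 0.10) stayed near the fork genes, and 3 members were higher than them, *nap-1* (1.15, adjusted p = 9.8e-05), *hira-1* (0.66, adjusted p = 4.4e-04) and *unc-85* (0.63, adjusted p = 0.0014). A scaling shifts all genes alike, so *rba-1*, *cdl-1* and *lin-53* were lowest and *nap-1* highest under each of the 4, while the sign of a change relative to 0 depended on the list the libraries were scaled to.

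**Figure D4:**
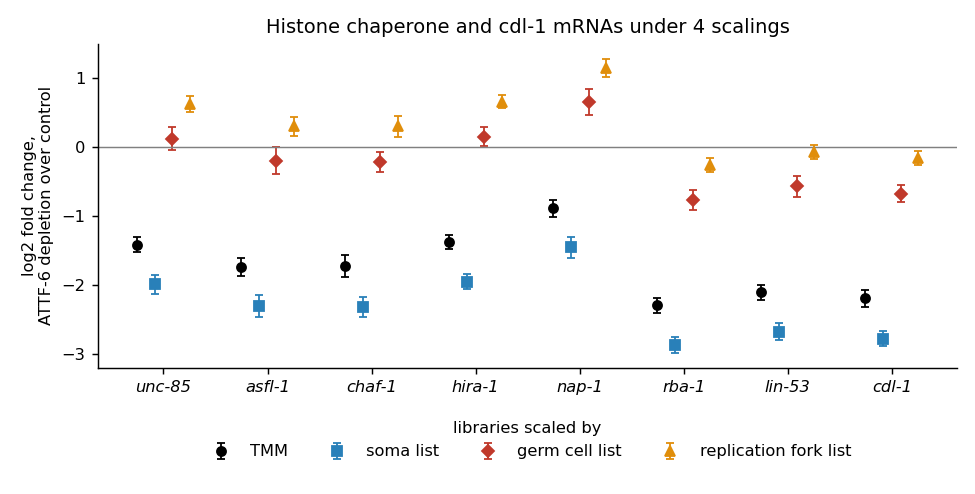
Log2 fold change, ATTF-6 depletion over control, of the 8 genes with libraries scaled by TMM (black circles), the somatic list (blue squares), the germ cell list (red diamonds) or the replication fork list (orange triangles), with bars of 1 SE from edgeR. All black and blue points lie below 0, the red points lie on both sides of 0, and the orange points of *rba-1*, *lin-53* and *cdl-1* lie between -0.25 and -0.06 while *nap-1* reaches 1.15.

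The genes with the most similar profile were found among protein-coding genes by the Euclidean distance of log2 CPM centred over the 4 libraries, a description with 2 libraries a group in which the group difference dominates. The nearest were *psf-1*, a GINS subunit of the replicative helicase, and *metl-1* for *unc-85* (distances 0.013 and 0.035), *exo-1* and the kinetochore gene *mis-12* for *asfl-1* (0.048 and 0.054), and *prom-1* and *tag-115* for *chaf-1* (0.076 and 0.084). For *hira-1* they were *dnj-17* and the H3K9 methyltransferase gene *set-25* (0.020 and 0.035), and for *nap-1* they were *mogs-1* and *crls-1* (0.020 and 0.021). *htz-1*, the H2A.Z gene, and the ribonucleotide reductase gene *rnr-2* were nearest to *rba-1* (0.028 and 0.045), *cit-1.1* and the PCNA gene *pcn-1* to *lin-53* (0.048 and 0.064), and the B-type cyclin gene *cyb-2.1* and *cdh-4* to *cdl-1* (0.036 and 0.044). Among the members themselves the closest profiles were *unc-85* and *hira-1* (0.17) and *rba-1* and *cdl-1* (0.18), followed by *rba-1* and *lin-53* (0.21), and the farthest were *rba-1* and *nap-1* (1.41).

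Of the 8 genes, 4 lie within 0.583 Mb of chromosome I: *chaf-1* at chrI:9077565-9080024, *rba-1* and *lin-53* at the positions above, and *asfl-1* at chrI:9658274-9660080 (WBcel235). *unc-85* lies at chrII:4702069-4703219, *cdl-1* at chrII:10785452-10787272, *hira-1* at chrIII:5191124-5196088 and *nap-1* at chrIV:8377705-8379319. The decreases of the 4 genes on chromosome I ran from -1.72 to -2.29 on the log2 scale and those of the other 4 from -0.89 to -2.19, so the ranges overlapped.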

How the data were processed

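Ribosomal RNA was removed from total RNA of whole adults and strand-specific paired-end libraries of longer RNAs were sequenced. The sample titles call them small RNA libraries, but the protocol is that of mRNA sequencing. The deposited values are estimated counts per gene: the authors trimmed reads, aligned them with STAR to the WormBase genome, removed orphan mates and counted by strand with featureCounts, dividing each multi-mapping read among its sites, so some counts are fractions. They quantified transposons with Salmon, and the 181 transposon rows were left out of library sizes and tests. Symbols came from a gene table, and positions and exon lengths from Ensembl release 115 of WBcel235. The symbol *pup-1* was not matched, which left 13 of 14 genes in its list.

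Counts were rounded to whole numbers. The test was that of edgeR 4.0.16 under R 4.3.3 (filterByExpr at 10 counts and a total of 15, TMM factors 0.949 to 1.02, glmQLFit and glmQLFTest with group only, two-sided, Benjamini-Hochberg over all genes). Every adjusted p is from this test. Standard errors were taken from the fold change and its F value. List scalings set library sizes to the summed counts of a list, whose genes stayed in the test. Alternatives were DESeq2 1.42.0, its size factors, filters, truncation, each library left out and a replicate block. Fits were tested on simulated data with few changed genes, balanced in direction, and the same spread in both groups. These data differ in the number of changes and in spread, so that test does not cover them. All members were named, with up to 3 largest changes a pathway list and the 2 nearest profiles. The members and lists were chosen with earlier results of these data known. The study's supplementary count table gives the control replicates the opposite numbers, and the labels were followed. The design assumed an annotation of histone class, which was not given, so *his* genes were not split.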

Additional observations from a re-analysis of the deposited data

How the results depend on the processing

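With 2 libraries a group, the tests rest on the spread of 4 libraries, and the depletion libraries were the more variable. All 8 decreases were called with DESeq2 (9319 genes called), DESeq2's size factors, no filter, at least 50 counts, truncated counts, the somatic list scaling and each library left out (8242 to 11168 genes called, against 10452). A lone library was then assumed to vary like the other group. Without a library in turn, log2 fold changes of *nap-1* were -0.98 to -0.86. The replicate block called all 8 members and 10749 genes, so it changed no call of a member. The labels do not say whether same-numbered libraries were prepared together, and the correlation of their deviations was -0.011. No pairing was used.

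Scaling to the germ cell list gave 4 members called, 3 lower and 1 higher, with *unc-85* at 0.13, *hira-1* at 0.15, *nap-1* at 0.66, *asfl-1* at -0.19, *chaf-1* at -0.21 and the ASF1 sum at 0.011. Scaling to the replication fork list gave 3 called, 0 lower and 3 higher, with *unc-85* at 0.63, *asfl-1* at 0.30, *chaf-1* at 0.31, *hira-1* at 0.66, *nap-1* at 1.15, *rba-1* at -0.25, *lin-53* at -0.064, *cdl-1* at -0.16, the ASF1 sum at 0.51 and the *rba-1* plus *lin-53* sum at -0.12. These shifts follow from the construction of the scaling. Relative to the germ cell list with each library left out, an alternative chosen after seeing the data, *unc-85* ranged from -0.073 to 0.31, *asfl-1* from -0.41 to 0.0030, *chaf-1* from -0.32 to -0.12, *hira-1* from 0.055 to 0.25, *nap-1* from 0.41 to 0.87, *rba-1* from -0.87 to -0.65, *lin-53* from -0.74 to -0.41 and *cdl-1* from -0.69 to -0.66. With a depletion library left out, a lone library remained in that group. The calls of *asfl-1*, *chaf-1*, *unc-85* and *hira-1* were then not the same as with all libraries. The cause was not tested.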
